A study of Mus musculus with 2 samples.

Results

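The plasminogen activation system and a group of serpins were followed as 9 genes, listed by symbol. They comprise urokinase (Plau), its receptor (Plaur), tissue plasminogen activator (Plat) and the serpins Serpine2, Serpinb2, Serpinb5, Serpinb6a, Serpinb9 and Serpinh1. Every probe set (a group of short probes read as 1 value) that the platform annotation assigns to exactly 1 of these symbols was taken, without regard to its signal. This gave 15 probe sets for 8 of the 9 genes, among 18193 genes named on the array. Serpine2 matched no probe set under this rule and was not analysed here. The study compared CMT-93, a mouse rectal carcinoma line, with CMT-93-PM1, cells grown in primary culture from visible lung tumours. The parental line had been given to female C57BL/6 mice, 6 weeks old, by tail vein injection, and the tumours were taken 8 weeks later. Its title concerns profilin 2, and its design asks which genes differ once a line has been recovered from lung metastases. There was 1 array for parental CMT-93 and 1 for CMT-93-PM1, each from 6 µg of total RNA, and the labels do not say how many tumours or clones the recovered culture represents.

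Urokinase and tissue plasminogen activator are serine proteases that cut plasminogen into plasmin, a broad protease that dissolves fibrin and degrades matrix proteins. Urokinase works mostly while held at the cell surface by its receptor, whereas tissue plasminogen activator is best known for acting on fibrin. Serpins are suicide inhibitors that trap a protease by offering it a reactive loop. Some inhibit the activators, others guard the cell interior against proteases, and a few, such as the collagen chaperone Serpinh1, inhibit no protease at all. In carcinomas this system has long been studied for its part in invasion and the passage of tumour cells through tissue.

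Signals are given as deposited, on a log2 scale, so a step of 1 is a factor of 2. The median signal was 5.36 (parental) and 5.26 (lung-recovered). Signals at or below the 40th percentile of an array, 4.69 and 4.59, were treated as a floor and read as not resolved from background. Where 1 of the 2 signals is at the floor, the difference is a bound and is written "at least". Ratios are lung-recovered minus parental. With 1 array per line there is no replicate error, no test and no p-value for any difference below, and effects of culture, labelling or hybridization cannot be told apart from a difference between the lines. The sole spread in the data is that between probe sets of the same gene, with a median SD of 0.17 for the log2 ratio over 5782 genes and a 90th percentile of 0.49. In RNA from a whole culture, fewer cells expressing a gene and less RNA per cell cannot be told apart.

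Of the 9 genes, 7 were measured, and Serpinh1 alone passed 2-fold, upward. Of all 13224 measured genes, 7.03% were at least 2-fold apart, 4.45% higher and 2.57% lower in the lung-recovered line, so a single gene of 7 says nothing about the group. Plat lay just short of 2-fold downward, Plau and Serpinb5 were about 1.5-fold higher at low signal, and Plaur, Serpinb6a and Serpinb9 differed least. At 1.5-fold or more, 3 members were higher and 1 was lower, beside a background of 18.6% of measured genes in either direction, 11.6% higher and 7.02% lower. Their median log2 ratio was -0.05, against 0.00 over all measured genes, with 3 ratios above 0 and 4 below. Serpinb2 was at the floor on both arrays.

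**Figure D1:**
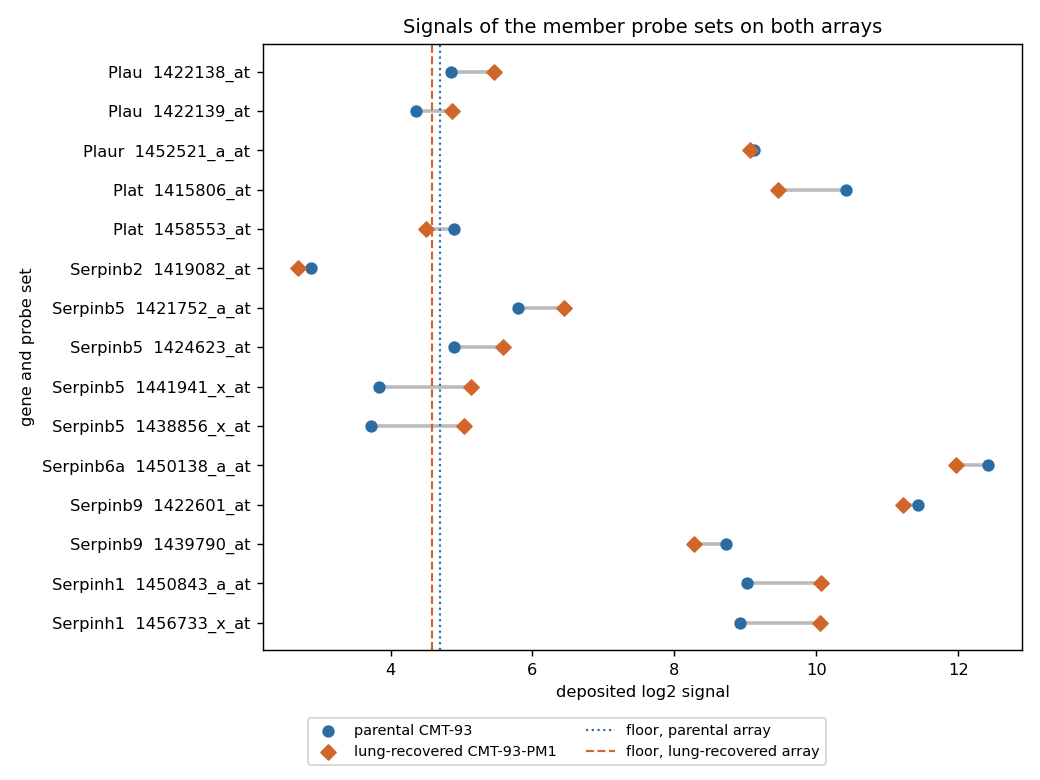
Deposited log2 signal of each of the 15 member probe sets on the parental array (circles) and the lung-recovered array (diamonds), with the floor of each array as a vertical line. The probe sets of Serpinh1 lie to the right for the lung-recovered array (10.07 and 10.05 against 9.02 and 8.92). That of Plat at 10.42 lies to the left (9.46), and the parental readings of Plau sit beside the parental floor.

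Urokinase gave a low signal in both lines and was barely above background in the parental line. The brighter Plau probe set (1422138_at) read 4.85 in parental and 5.46 in lung-recovered cells, only 0.16 above the parental floor, which gives a ratio of 0.61 or 1.53-fold higher. The other (1422139_at) read 4.36, at the floor, and 4.86, at least 1.13-fold higher. Both probe sets pointed upward, but 12.7% of the 1322 genes closest in mean signal, from a division of the measured genes into 10 equal groups, had a ratio at least as far from 0. With the floor at the 60th percentile Plau was no longer measured.

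The urokinase receptor, a glycolipid-anchored protein that concentrates urokinase at the leading edge of cells, was well above the floor in both lines at nearly the same signal. Its single probe set (1452521_a_at) read 9.12 and 9.07, a ratio of -0.05. Of the genes of like mean signal, 89.9% had a ratio at least as far from 0. Its sign turned, to 0.05, when the arrays were scaled to equal medians.

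Tissue plasminogen activator had the lowest ratio of the measured members. Its bright probe set (1415806_at) read 10.42 in parental and 9.46 in lung-recovered cells, a ratio of -0.96 or 1.95-fold lower. The other probe set (1458553_at) read 4.90 and 4.50, at the floor of the lung-recovered array, and was at least 1.24-fold lower. Both probe sets pointed downward. Of the 1322 genes of like mean signal, 4.46% had a ratio at least as far from 0. After lowess correction or quantile normalization Plat passed 2-fold, at -1.03 under each, while the median over both probe sets, which includes the bound, gave -0.64.

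**Figure D2:**
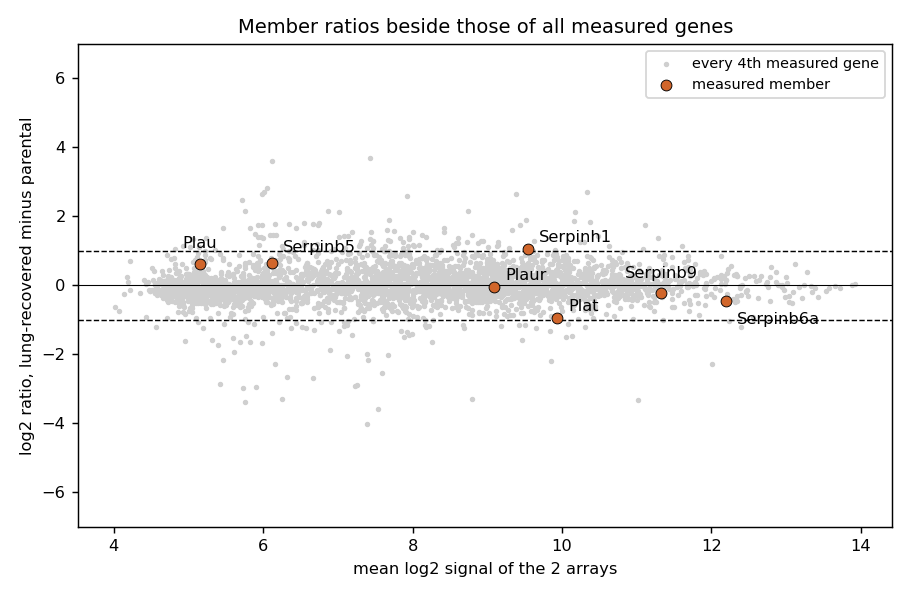
Log2 ratio (lung-recovered minus parental) against the mean log2 signal of both arrays, for the 7 measured members by representative probe set (orange) and for 1 in 4 measured genes, taken in alphabetical order (grey). Dashed lines mark 2-fold. Serpinh1 lies at 1.05, just past the upper line, and Plat at -0.96, just inside the lower, while Plaur lies at -0.05.

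Among the inhibitors, Serpinb2, which blocks both activators and is also kept inside cells, was not measured, with readings of 2.88 and 2.69. Serpinb5 (maspin), an epithelial serpin that is not thought to trap proteases, pointed upward by all 4 of its probe sets, each at low signal. Its brightest (1421752_a_at) read 5.79 and 6.44, 1.57-fold higher, and the second (1424623_at) read 4.89 and 5.58, 1.61-fold higher. The remaining probe sets started from the parental floor. Readings of 3.84 and 5.14 (1441941_x_at) bound the difference at 1.37-fold or more, and readings of 3.73 and 5.03 (1438856_x_at) at 1.27-fold or more. Thus the probe sets agreed in direction. Those above both floors were short of 2-fold, and those starting from the floor give no upper limit, with differences of 1.30 each between the deposited readings. Of the genes of like signal, 19.1% had ratios at least as far from 0, and a floor at the 60th percentile lay above the parental reading, leaving a bound of at least 0.26 in place of the ratio of 0.65.

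Both intracellular protective serpins gave strong signals in each line and read slightly lower in the lung-recovered line. Serpinb9, which inhibits granzyme B, the killing protease of cytotoxic lymphocytes, read 11.43 and 11.22 by 1422601_at (1.16-fold lower) and 8.73 and 8.28 by 1439790_at (1.37-fold lower). Serpinb6a, a cytosolic inhibitor of trypsin-like proteases and cathepsin G, read 12.42 and 11.97 (1450138_a_at, 1.37-fold lower). Ratios at least as far from 0 were found in 55.6% of the 1323 genes of like signal for Serpinb9 and in 21.5% for Serpinb6a. Both genes have close paralogs whose transcripts could add to these signals.

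Serpinh1 (Hsp47), an endoplasmic reticulum chaperone that binds folded procollagen, was higher in the lung-recovered line by both of its probe sets. The first (1450843_a_at) read 9.02 and 10.07, a ratio of 1.05 or 2.07-fold, and the second (1456733_x_at) read 8.92 and 10.05, a ratio of 1.13 or 2.19-fold. Both probe sets were thus higher by a similar amount. Of the 1322 genes of like signal, 5.9% had a ratio at least as far from 0, and 96.1% of all measured genes had a lower ratio. The distance from 2-fold is small: the ratio was 0.97 after lowess correction and 0.96 after quantile normalization. Both probe sets carry name suffixes. The suffix _a marks probes shared by transcripts of the same gene, and _x marks probes that may also match other sequences.

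To show the start regions of the member past 2-fold and of members that an AP-1 factor is known to act on, the 250 bases before the RefSeq start are printed for Serpinh1, Serpinb5 and Plaur, on build GRCm38.p6 and 5′ to 3′ along the gene's strand. The windows are chr7:99353240-99353489 (minus strand), chr1:106860925-106861174 (plus strand) and chr7:24462233-24462482 (plus strand). Capitals mark the AP-1 letters TGANTCA, searched on both strands.
Serpinh1: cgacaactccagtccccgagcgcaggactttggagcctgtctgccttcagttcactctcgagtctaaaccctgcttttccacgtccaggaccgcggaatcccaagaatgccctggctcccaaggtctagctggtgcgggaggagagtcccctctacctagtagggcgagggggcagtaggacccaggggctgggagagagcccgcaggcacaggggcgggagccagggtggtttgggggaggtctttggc
Serpinb5: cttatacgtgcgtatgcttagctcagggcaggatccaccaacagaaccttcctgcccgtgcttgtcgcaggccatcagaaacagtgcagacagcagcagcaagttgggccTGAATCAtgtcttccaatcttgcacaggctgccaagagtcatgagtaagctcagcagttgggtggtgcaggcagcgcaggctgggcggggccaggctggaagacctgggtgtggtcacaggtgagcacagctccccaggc
Plaur: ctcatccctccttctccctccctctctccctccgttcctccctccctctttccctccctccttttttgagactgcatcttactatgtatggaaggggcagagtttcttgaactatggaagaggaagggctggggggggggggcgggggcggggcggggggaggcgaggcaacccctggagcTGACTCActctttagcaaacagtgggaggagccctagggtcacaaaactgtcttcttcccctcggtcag
Such a match begins 140 bases before the start of Serpinb5 (TGAATCA) and 69 bases before that of Plaur (TGACTCA), and the Serpinh1 window holds none. Of 32851 windows of this length, 6.75% hold these letters. The paired heat shock letters GAANNTTC or TTCNNGAA, which overlap no AP-1 letters here, were also searched on both strands and are not capitalized. Neither is in the Serpinh1 window, and they occur in 6.69% and 7.17% of windows. GAANNTTC begins 207 bases before the start of Serpinb5 and TTCNNGAA 147 bases before that of Plaur. Windows of Serpinb2 and Serpinb6a hold TTCNNGAA as well. Among the 7 members with a window in the RefSeq table, Serpinb2 also holds TGANTCA. Plau and Plat have no window there, so their start regions were not searched. A match is a description of letters and not a binding site.

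AP-1 and Ets transcription factors are textbook regulators of the urokinase and receptor genes. Of 15 listed, 14 were measured. At 2-fold or more, 3 were higher (21.4%, against 4.45% of all measured genes) and 0 lower, and the median ratio was 0.22. The list is short and was chosen with earlier results of these data known, so its counts are descriptions. Fos read 7.63 and 9.79, 4.47-fold higher. Jun read 9.76 and 10.78, 2.03-fold higher, while a dimmer probe set gave 1.77-fold. Ets1 read 9.13 and 10.39, 2.39-fold higher, and 3 dimmer probe sets gave 1.51-fold to 2.22-fold. Jund (12.14 and 12.06) and Ets2 (12.12 and 11.87) were within 2-fold. Jun was at 0.95 after lowess correction and after quantile normalization, which left 2 genes past 2-fold, and by the median over probe sets 1 passed. These readings stood beside a Plaur signal that differed by 0.05. The Plau signal, close to the floor in the parental line, read 1.53-fold higher. Whether these factors bear on either gene here was not tested.

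Around the activators, the plasminogen gene was not measured and the measured genes of its surface docking proteins gave no value past 2-fold. Of 8 listed, 6 were measured, 0 were past 2-fold in either direction and the median ratio was 0.44. After scaling to equal medians, 1 was at least 2-fold higher. Plg was at the floor on both arrays (4.38 and 3.98), and the liver is the known main source of plasminogen. Anxa2, the annexin that with S100a10 docks plasminogen and tissue plasminogen activator, read 12.87 and 13.12, and Krt18, a keratin reported to bind plasminogen, read 11.96 and 12.88. Of 7 other inhibitors of plasmin or its activators, 2 were measured and both were within 2-fold: Serpinf2, the plasma inhibitor of plasmin, at 6.80 and 6.08 (1.65-fold lower), and neuroserpin (Serpini1), an inhibitor of tissue plasminogen activator, at 8.21 and 7.50 (1.64-fold lower, and 1.38-fold by a second probe set). Neuroserpin thus pointed the same way as its target Plat, in this single pair of arrays.

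Of 15 partners and clearance receptors of urokinase and its receptor, 12 were measured. Counts for this list are also descriptions, since earlier results of these data were known when it was chosen. At 2-fold or more, 2 were higher (16.7%, against 4.45% of all measured genes) and 0 lower, and the median was 0.06. Lrp1, the endocytic receptor that removes complexes of activators with their serpins, read 5.39 and 8.05, 6.32-fold higher by its brighter probe set, while the other was at the floor on both arrays (3.03 and 3.16). Igf2r, the mannose 6-phosphate receptor, which binds the urokinase receptor, read 8.21 and 9.87 (3.16-fold higher), and a second probe set read 7.47 and 9.27. The integrin subunits Itgb1 (10.73 and 11.63) and Itgav (11.40 and 11.20) were within 2-fold. Scaling to equal medians raised the number at least 2-fold higher to 4, and a floor at the 60th percentile turned the Lrp1 ratio into a bound of at least 1.87.

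Among 16 substrates of plasmin or urokinase, 13 were measured. Earlier results were known when these substrates were listed, so their counts are descriptions as well. At 2-fold or more, 2 were higher and 2 lower (15.4% each, against 4.45% and 2.57% of all measured genes), and the median was 0.04. The lymphangiogenic factor gene Vegfc read 5.96 and 8.08 (4.35-fold higher), and Tgfb1, whose latent product plasmin can activate, read 4.85 and 5.87 (2.03-fold higher, against 1.05-fold for a second probe set). The metalloproteinase genes Mmp12 (8.40 and 6.28, 4.35-fold lower) and Mmp13 (6.74 and 4.19, at least 4.44-fold lower) were the lower ones. Fn1 (a ratio of 0.23) and Lama5 (-0.25) were within 2-fold. A floor at the 60th percentile shrank the Mmp13 bound to -0.59 and left Tgfb1 not measured.

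**Figure D3:**
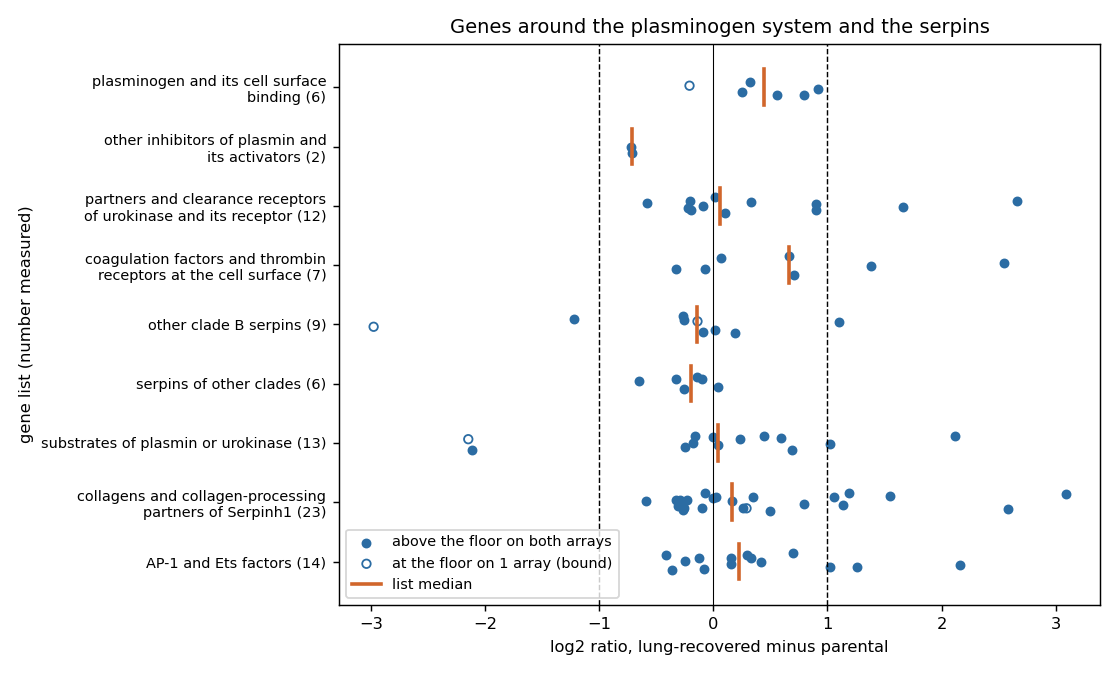
Log2 ratio (lung-recovered minus parental) of each measured gene of 9 lists around the plasminogen system and the serpins, with the list median as an orange bar and 2-fold as dashed lines. Open circles are bounds. The collagen list has 6 genes past the upper line and 0 past the lower, and the lists of plasminogen docking proteins and of other inhibitors lie between the lines.

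Serpinh1 was set beside its clients, the collagens, and the enzymes that modify procollagen. Of 28 listed, 23 were measured. This list too was chosen with earlier results of these data known, so its counts are descriptions and not a test. Its genes pointed upward in 13 cases and downward in 9, and the median was 0.16. At 2-fold or more, 6 were higher (26.1%, against 4.45% of all measured genes) and 0 lower. The collagen genes were Col8a1 (6.08 and 9.17, 8.51-fold, against 4.47-fold for a second probe set), Col18a1 (6.52 and 9.10, 5.98-fold, against 17.9-fold for a second probe set at 5.27 and 9.43) and Col16a1 (7.23 and 8.78, 2.93-fold). The other 3 act on procollagen in the endoplasmic reticulum: P3h1, a prolyl 3-hydroxylase, read 5.79 and 6.98 (2.28-fold, against 1.96-fold for a second probe set), its partner Crtap read 7.06 and 8.12 (2.08-fold), and Plod2, a lysyl hydroxylase, read 7.69 and 8.83 (2.20-fold, against 2.73-fold for a second probe set). P4hb (12.29 and 12.06) and Ppib (11.71 and 12.06), which serve prolyl 4-hydroxylation and proline isomerization, were within 2-fold. The fibril collagen genes Col1a1 and Col3a1 were at the floor on both arrays. With suffixed probe sets left out the count was 4 higher. P3h1 was then at 0.97, and Col16a1, whose sole probe set is suffixed, had no value. A floor at the 60th percentile left P3h1 a bound of 0.80, and Crtap was at 0.99 after quantile normalization. Of 10 fibroblast markers, 5 were measured, 0 were past 2-fold and their summed linear signal was 362 (parental) and 297 (lung-recovered).

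Serpinb6a and Serpinb9 belong to a family of clade B serpins that sits on chromosome 13, where they have many close relatives. Of 16 such genes in the gene table, 11 had a named probe set and 10 were measured, of which 1 was at least 2-fold higher and 2 lower. Of all measured genes, 4.45% were higher and 2.57% lower by that rule. The larger differences were in relatives and not in the members. Serpinb6c, which neighbours Serpinb6a in map order, read 7.57 and 3.88, at least 7.89-fold lower by a single probe set of suffix _s (1451594_s_at). Serpinb1a, an inhibitor of neutrophil proteases, read 8.76 and 7.54 (2.33-fold lower, against 2.03-fold for a second probe set). Serpinb9g read 6.18 and 7.28, 2.14-fold higher, and Serpinb6b (10.70 and 10.44) and Serpinb9b (11.94 and 11.67) were within 2-fold. Between near-identical paralogs the assignment of signal is uncertain, and probe sequences were not used here. For Serpinb6c a floor at the 60th percentile shrank the bound to -1.42, and the difference without a floor was -3.69.

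**Figure D4:**
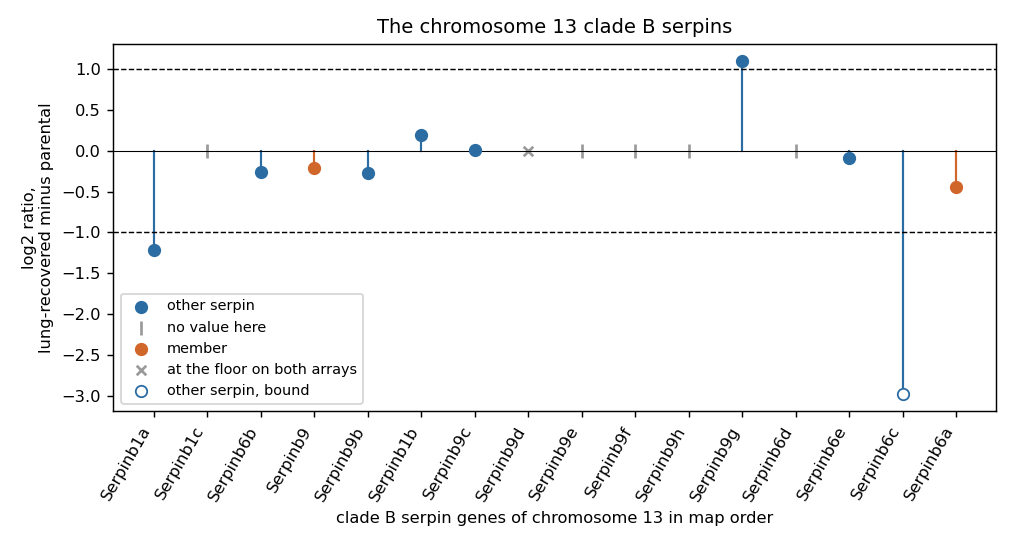
Log2 ratio (lung-recovered minus parental) of the 16 clade B serpin genes of chromosome 13, in map order with equal spacing, members in orange. Serpinb6c is a bound of -2.98, Serpinb1a lies at -1.22 and Serpinb9g at 1.10, while Serpinb9 (-0.21) and Serpinb6a (-0.45) lie within 2-fold.

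Cell type markers were read in both cultures. The epithelial list marks epithelium in general and does not tell carcinoma from other epithelium. Of 10 epithelial markers 8 were measured and 0 were past 2-fold, with Krt19 at 12.72 and 12.98 and Cdh1 at 12.66 and 12.52, while the enterocyte genes Vil1 and Lgals4 were at the floor on both arrays. Leukocytes and endothelium also make urokinase or tissue plasminogen activator. The leukocyte genes Ptprc, Adgre1 and Itgam were at the floor on both arrays. Cd68 (3.53-fold) and Csf1r (2.17-fold, with its dimmer probe sets at 1.72-fold and 1.01-fold) were higher and Cd14 (2.81-fold) lower. The summed linear signal of the 8 leukocyte markers was 1856 and 1027. Most of each sum came from Cd14 (10.63 and 9.14), so the lower sum reflects that gene and not the leukocyte markers as a set. Of 8 endothelial markers 3 were measured. Cdh5 was at least 24.4-fold higher, against at least 1.78-fold for a dimmer probe set (3.98 and 5.52). Tek was at least 15.8-fold lower, Pecam1 was at the floor on both arrays, and the summed signals were 520 and 755. Lung epithelial markers had 0 of 5 measured genes past 2-fold. The part of such cells in the member signals was not tested.

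**Figure D5:**
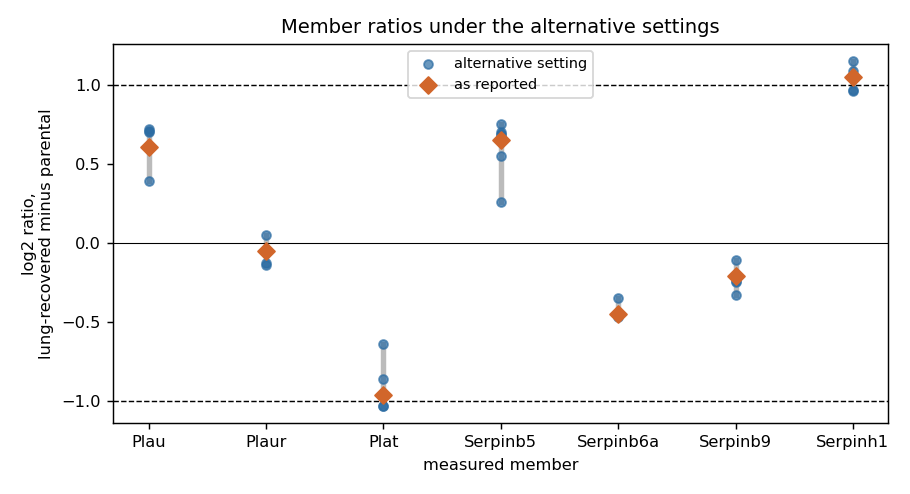
Log2 ratio (lung-recovered minus parental) of the 7 measured members as reported (orange diamonds) and under each alternative setting that gave a value (blue circles), with 2-fold as dashed lines. Serpinh1 ranged from 0.96 to 1.15 and Plat from -1.03 to -0.64, so which of these genes passes 2-fold depends on the setting, and Plaur (-0.14 to 0.05) is the one measured member whose sign turned.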

How the data were processed

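Biotin-labelled cRNA from each line was hybridized to 1 Affymetrix array, per the labels' protocols. The deposited table holds log2 signals for 45037 probe sets per array. A log base of 2 was inferred, since the highest signals then correspond to 19484 and 19893 on a scanner's linear scale. MAS5 appears in the submitters' processing notes without a stated role, and the sources used here do not give the probe summary or normalization. Values were used as deposited, with no rescaling.

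The annotation lists 35877 probe sets, 34945 with 1 symbol, 932 with several (left unnamed). Symbols follow the GRCm38.p6 gene table, matched on Entrez identifier. A gene is represented by its probe set of highest mean signal. Each array was floored at its 40th percentile, and genes at the floor on both arrays, or above 1 floor but not above the other array's, were not measured. Counts use 2-fold as a rule of size.

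The members and gene lists were chosen with earlier results of these data known. Named are all members, and from each list the genes past 2-fold and the 2 of highest mean signal within it; other list genes named for their role were chosen after their values were seen. Alternatives were 3 scalings, floors at the 20th and 60th percentiles and none, the median over probe sets, dropping suffixed probe sets, and 1.5-fold. For lists they were added after seeing the data. Steps ran in Python 3.11.15 with pandas 2.3.3 and statsmodels 0.14.6 (lowess span 0.3) and were tested on simulated data. Promoter sequences are from RefSeq (GRCm38.p6), with windows for 7 of 9 members and none for Plau and Plat.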

Additional observations from a re-analysis of the deposited data

How the results depend on the processing

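No paired analysis was possible because each line has 1 array, and leaving out a replicate was not possible for the same reason. The count of members at least 2-fold apart was 1 as reported and under 7 alternatives, but the gene differed: it was Plat in place of Serpinh1 after lowess correction and after quantile normalization. The count was 0 without suffixed probe sets, where Serpinh1, Plaur and Serpinb6a have no probe set left, and 4 at 1.5-fold. The median member ratio was 0.20 without suffixed probe sets and between -0.14 and 0.05 under the other alternatives. Of 52 member ratios under alternatives, 3 moved by more than 0.17: Plau to 0.39 and Plat to -0.64 by the median over probe sets, and Serpinb5 to a bound of 0.26 under a floor at the 60th percentile, which lies above its parental reading. Scaling to equal medians shifted the median of all genes to 0.10, and members moved up with it. The 2-fold background ranged from 5.63% without a floor to 7.53% after scaling to equal medians. Of 72 list medians under alternatives 13 moved, most often that of the coagulation list, from -0.04 without a floor to 1.04 with the floor at the 60th percentile. Low signal over background limits Plau, Serpinb5 and Serpinb2.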

Other observations

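Coagulation factors and thrombin receptors form the sister cascade of plasminogen activation. Of 17 listed, 7 were measured. As with the other lists, earlier results were known when it was chosen, so its counts are descriptions. At 2-fold or more, 2 were higher (28.6%, against 4.45% of all measured genes) and 0 lower, and the median ratio was 0.66. The protein C receptor gene Procr read 8.27 and 10.82, 5.86-fold higher, and the thrombin receptor gene F2r read 10.60 and 11.98, 2.60-fold higher. Both have suffixed probe sets alone, so without these the count was 0. Tissue factor (F3) read 9.66 and 10.37, and its inhibitor Tfpi read 9.19 and 9.26. The prothrombin gene F2 and the fibrinogen genes Fga, Fgb and Fgg were at the floor on both arrays.

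Serpins of other clades that had a named probe set were mostly dim. Of 25 listed, 16 had a named probe set, and 10 of these were not measured. Of the 6 measured, 0 were past 2-fold in either direction and the median ratio was -0.20. Agt (6.44 and 5.79) and Serpinf1 (6.03 and 5.89) had the highest mean signals among them. On chromosome 1, 12 clade B serpin genes lie in a group that includes Serpinb5 and Serpinb2. Of the 7 with a named probe set, 5 were at the floor on both arrays. The measured ones were Serpinb5 and Serpinb8 (4.73 and 4.24, at least 1.10-fold lower), the latter at the edge of the floor.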
